A study of Mus musculus with 12 samples.

Results

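The comparison described here asks whether nerve transection changed a gene by a different amount in mice with a Schwann cell knockout of Tfeb on a global Tfe3 knockout (dKO) than in control mice. For each gene the injury change in dKO nerve was taken minus the injury change in control nerve, in 1 contrast over all genes. All 12 of 12 libraries of the series enter it, 3 in each of 4 groups, and the contrast was tested in 22384 of 38087 gene models. A negative difference, on the log2 scale throughout, is called lower in dKO and a positive one higher in dKO.

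The tissue was mouse sciatic nerve, measured as bulk polyA RNA. The dKO mice carried Dhh-Cre, which acts in the Schwann cell lineage, on Tfebflox/flox with a global Tfe3 knockout, so Tfeb was to be lost from Schwann cells and Tfe3 from every cell of the nerve. Controls (Dhh-Cre-:Tfebflox/flox;Tfe3+) carried the same floxed Tfeb alleles without Cre, and Tfe3. Injured nerve was the distal stump 5 days after transection, without the tissue closest to the injury site. Intact nerves were the uncut contralateral ones, and their epineurium was removed, a step the labels give for intact nerve only. Age and sex are not given in the labels, nor is which intact and injured nerves share an animal, so p-values measure only the spread between these libraries.

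TFEB and TFE3 are related transcription factors that move to the nucleus when the kinase complex mTORC1 at the lysosome is inactive, and they bind short E-box elements in promoters of genes for lysosomal enzymes, the vacuolar proton pump and autophagy. After a nerve is cut, Schwann cells beyond the injury leave the myelinating state, divide, digest their own myelin, and turn on a repair program led by the AP-1 factor c-Jun. Macrophages enter the nerve in the same days and digest myelin as well. In a bulk sample, fewer cells of a type and less RNA per cell cannot be told apart.

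Library totals ran from 15430999 to 35845371 counts. The injured nerve holds 2 library sets that differ in reads on genes that are silent in nerve: 174 to 375 olfactory receptor genes had a read at equal depth in 4 libraries, against 46 to 75 in the other 8. The 4 are replicate 4 of injured control nerve and all 3 libraries of injured dKO nerve, so the set and the contrast are partly tied. A fit with the set as a term in effect sets injured dKO nerve against replicate 4 of injured control nerve. Its values or outcome are given beside most of the lists and genes whose call it ends. Replicate 1 of injured control nerve was the only library with high Xist (10712 counts against at most 23) and had 244 Y-linked counts against 1907 to 3724 in the others, so the libraries differ in sex. Whether the set or the sex takes part in any difference was not tested beyond the fits named.

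The genes the labels name come first. Tfeb stood at 22.6, 23.9 and 26.9 CPM, reads scaled to library size, in control intact nerve and at 17, 19.5 and 17.3 in dKO intact nerve. After injury the 3 control libraries had 24, 18.2 and 18.4 CPM and the 3 dKO libraries 14.2, 19.6 and 29.8. The groups overlap at 5 days, and a count over the whole gene cannot show the loss of floxed exons from 1 cell type. Tfe3 ranged from 55 to 67.6 CPM in the 6 control libraries and from 43.3 to 53.8 in the 6 dKO libraries, with no overlap. Most of the Tfe3 reads were thus still counted in the knockout, and its genotype difference did not pass the test in intact nerve (adjusted p = 0.841) or at 5 days (adjusted p = 0.126). A whole-gene count does not show which part of the Tfe3 transcript is made. Neither had an injury change that passed the test of a difference (Tfeb 0.51 ± 0.30, adjusted p = 0.453; Tfe3 0.15 ± 0.14, adjusted p = 0.669; each ± SE, edgeR).

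Injury changes differed between the genotypes in 650 gene models, which is 2.9% of those tested: 485 were lower in dKO (2.17%) and 165 higher (0.737%). Their typical difference was 1.11 on the log2 scale (median of the absolute values), with a median SE of 0.206. It was over 1 in 378 and over 2 in 95 of them. With the library set as a term, 97 were lower (0.433%) and 75 higher (0.335%), 172 in all (0.768%). All 650 kept their sign in that fit and 167 of them also passed its test, with a median SE of 0.232. The split between lower and higher also moved with the scaling: with upper-quartile factors, which shift the median difference of all genes from -0.03 to 0.10, it was 296 lower to 224 higher.

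Most of these genes were injury genes whose change was smaller in dKO nerve. The largest class held 309 genes (classed by the sign of the fitted changes) whose rise was smaller, with median injury changes of 1.90 (control) and 0.81 (dKO). Next came 134 genes with a positive change in control and a negative one in dKO nerve (medians 0.58 and -0.34), and 121 genes whose fall was smaller (medians -3.78 and -1.76). The other 3 classes were small: 42 genes with a larger fall in dKO nerve, 27 with a fall in control and a positive change in dKO nerve, and 17 with a larger rise. Among all 22384 tested genes these classes held, in the same order, 5818, 2128, 4563, 3927, 1744 and 4204 genes. A smaller fall was thus also common among all tested genes, and whether any class is enriched was not tested. For 43 of the 650 genes the injury change passed the test in both genotypes with opposite signs, 35 of them falling and 8 rising in dKO nerve. The contrast and the genotype differences use the same libraries, so the latter are no separate evidence: the median absolute genotype difference of the 650 genes was 0.14 in intact nerve and 1.00 at 5 days. Over all tested genes the genotype test passed upward in 0 and downward in 0.00447% (1 gene) of intact nerve, and in 3.12% and 8.97% at 5 days. Across all tested genes the injury change in control nerve passed the test upward in 24.4% and downward in 22.4%, and in dKO nerve in 22% and 22.6%.

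**Figure D1:**
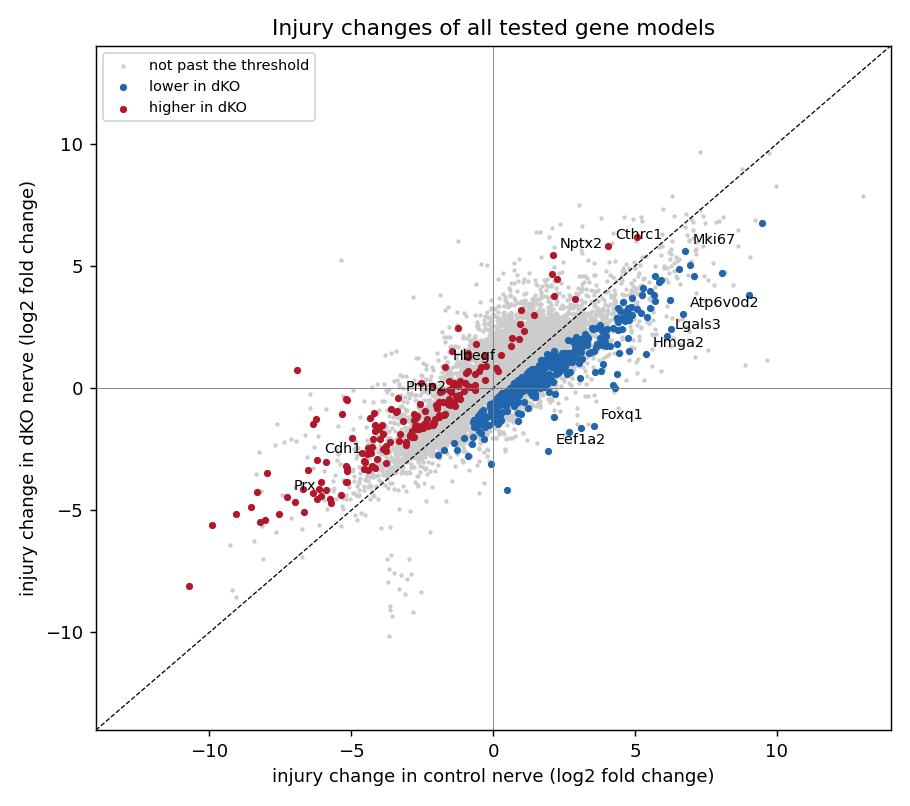
Injury change (log2, 5 days against intact nerve) in control nerve on the x axis and in dKO nerve on the y axis for the 22384 tested gene models; colour marks the 485 lower and the 165 higher in dKO, and the dashed line marks equal change. Most blue points lie right of the vertical axis with a smaller rise in dKO nerve, and most red points lie in the lower left with a smaller fall.

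The DNA motif that TFEB and TFE3 bind was looked up in the promoters of the genes that differed. It is an E-box, CACGTG, and in lysosomal genes it often has a T before it, TCACGTG, with TCACGTGA as its palindromic form. Both strands were searched in the first listed RefSeq promoter of each gene (GRCm38.p6, 250 bases before to 50 after the start site), which 13993 of the 22384 tested models had. TCACGTG was present in 5.3% of all genes with a promoter, in 28 of 336 genes lower in dKO (8.33%) and in 3 of 112 genes higher in dKO (2.68%). It was present in 8 of 36 lysosomal enzyme genes (22.2%), 4 of 21 lysosomal membrane genes (19%) and 4 of 12 proton pump genes (33.3%), and in 0 of 29 mitosis genes and 0 of 18 myelin genes. CACGTG, which every TCACGTG contains, gave 9.16% of all genes, 12.8% of those lower and 4.46% of those higher. The M-box TCATGTG, another element of this factor family, gave 2.42%, 4.76% and 2.68%, and the AP-1 element TGACTCA gave 4.16%, 4.46% and 5.36%. These shares are descriptions with no test, and a match is not a bound site.

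Of the 38 named genes lower in dKO that had a promoter in the table, 5 held TCACGTG (Nceh1, Gla, Atp6v0b, Foxd3 and Mcoln1) and 2 held only CACGTG (Gadd45b and Abca1). The sequences below show how the element sits in 4 of them and, for contrast, the promoters of Lgals3 and Lipa, the pair with the smallest p among genes lower in dKO, which hold none of the motifs searched. Each is written 5' to 3' on the strand of the gene, with E-boxes and the flanking T or A in capitals. Bases that GENCODE M21 counts as an exon of the gene are left out, except for Nceh1. Its motif lies past the GENCODE M21 gene start (27182965), and only 30 bases around it are shown.
Nceh1, chr3:27182967-27182996, plus strand: ctgaggaggaaCACGTGAaacagcagctgc
Gla, chrX:134601126-134601255, minus strand: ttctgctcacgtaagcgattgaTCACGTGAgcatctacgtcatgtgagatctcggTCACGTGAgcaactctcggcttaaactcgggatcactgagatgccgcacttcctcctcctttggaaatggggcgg
Atp6v0b, chr4:117887334-117887579, minus strand: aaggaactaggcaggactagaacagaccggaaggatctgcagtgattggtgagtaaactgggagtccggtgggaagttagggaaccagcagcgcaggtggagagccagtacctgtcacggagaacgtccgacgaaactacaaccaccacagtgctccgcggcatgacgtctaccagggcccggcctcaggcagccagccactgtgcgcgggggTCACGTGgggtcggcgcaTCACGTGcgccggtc
Foxd3, chr4:99656049-99656298, plus strand: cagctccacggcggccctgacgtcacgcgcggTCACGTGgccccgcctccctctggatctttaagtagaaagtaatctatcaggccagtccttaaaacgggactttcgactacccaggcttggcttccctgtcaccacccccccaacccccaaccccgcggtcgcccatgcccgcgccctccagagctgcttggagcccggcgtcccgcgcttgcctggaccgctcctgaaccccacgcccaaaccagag
Lgals3, chr14:47373610-47373812, plus strand: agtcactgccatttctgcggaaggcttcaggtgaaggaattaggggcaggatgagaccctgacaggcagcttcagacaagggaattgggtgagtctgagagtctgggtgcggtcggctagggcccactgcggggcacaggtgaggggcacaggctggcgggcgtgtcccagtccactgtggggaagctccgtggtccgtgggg
Lipa, chr19:34527475-34527724, minus strand: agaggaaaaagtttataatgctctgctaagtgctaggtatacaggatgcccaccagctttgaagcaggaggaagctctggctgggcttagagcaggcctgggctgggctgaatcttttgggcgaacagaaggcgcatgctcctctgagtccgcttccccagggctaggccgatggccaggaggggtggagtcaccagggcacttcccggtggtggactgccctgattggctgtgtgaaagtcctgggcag
The first match began 26 bases before the RefSeq start in Nceh1, 228 in Gla, 37 in Atp6v0b and 218 in Foxd3. Gla and Atp6v0b each carry a pair of matches.

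Among genes of lipid-laden phagocytes, cells that have taken up myelin lipid, Lgals3 stood far apart. It encodes galectin-3, a lectin that marks damaged lysosomes and phagocytic cells. Its level was 31.6, 31 and 31.4 CPM in control intact nerve, 35.9, 32.1 and 36 in dKO intact nerve, 2367, 2243 and 2031 in injured control nerve and 163, 145 and 144 in injured dKO nerve. The intact groups lie within a few CPM of each other, and no injured library of one genotype comes near those of the other. Lgals3 rose 70.7-fold in control and 4.34-fold in dKO nerve, a difference of -4.02 ± 0.15 (SE, adjusted p = 2.21e-09, edgeR), and -3.90 with the set term.

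Of the 20 genes of this list, 5 were lower in dKO and 0 higher, with a list median of -0.16 against -0.03 over all tested genes. Gpnmb, a membrane glycoprotein of phagocytic cells, stood at 299, 322 and 375 CPM in injured control nerve and at 46.6, 43.5 and 29.5 in injured dKO nerve. Its intact levels were 53.3 to 57.5 CPM in control and 21.1 to 34.4 in dKO nerve, without overlap, although that intact difference did not pass the genotype test (adjusted p = 0.254), and the difference of injury changes was -2.04 ± 0.26 (SE, adjusted p = 0.000694). Abca1, the pump that exports cholesterol from cells, rose 20.8-fold in control and 7.25-fold in dKO nerve (-1.52). The fatty acid carrier Fabp5 differed by -1.06 and galectin-1 (Lgals1) by -0.75. Lgals3 and Gpnmb passed the test with the set term, and the other 3 did not (adjusted p = 0.059 for Abca1 and 0.069 for Fabp5).

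Lysosomal enzymes followed in part. Of 43, 8 were lower in dKO and 0 higher, with a median of -0.22: Lipa, Psap, Gla, Tpp1, Hexa, Ctsd, Gusb and Ctsa. Lipa, the acid lipase that splits cholesterol esters and triglycerides, stood at 377, 329 and 323 CPM in injured control nerve. It stood at 102, 103 and 91.3 in injured dKO nerve, close to the 83.5 to 95.6 of all intact libraries. The difference was -1.75 ± 0.14 (SE, adjusted p = 1.09e-05), with injury changes of 1.90 (control) and 0.15 (dKO).

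Psap encodes prosaposin, the precursor of the proteins that present sphingolipids to lysosomal enzymes. It reached 6144, 6338 and 5499 CPM in injured control nerve against 1566, 1572 and 2051 in injured dKO nerve, with 1338 to 1464 in the intact libraries. Replicate 4 of injured dKO nerve was the highest of its group and still far under every injured control library. The alpha-galactosidase gene Gla rose 4.6-fold in control and by 1.51-fold in dKO nerve (-1.61), and the protease Tpp1 differed by -0.70. Nceh1, which splits cholesterol esters outside the lysosome, had injury changes of 1.36 (control) and -0.30 (dKO), a difference of -1.66. Without replicate 3 of control intact nerve or replicate 4 of dKO intact nerve the enzyme count was 5, and with the set term it was 4 (Lipa, Psap, Gla and Tpp1).

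Lysosomal membrane proteins were lower in 6 of 26 cases and higher in 0, with a median of -0.47 and 24 of 26 differences below 0. Gpr137b, a membrane protein of lysosomes, stood at 228, 197 and 168 CPM in injured control and at 65, 52.5 and 54.4 in injured dKO nerve, and differed by -1.61. The peptide transporter Abcb9 rose in control and fell in dKO nerve (0.50 and -0.96). Scarb2, the receptor that carries glucocerebrosidase to the lysosome, differed by -1.22, and the calcium channel gene Mcoln1 by -0.63. Npc1, the cholesterol exporter of the lysosome, and Tmem192 made up the rest. With the set term 2 of the 26 passed (Gpr137b and Abcb9).

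The vacuolar proton pump (V-ATPase), which acidifies lysosomes, differed below 0 in all 18 of its tested subunit genes, with a median of -0.48. Of these, 5 passed the test, all lower in dKO. The membrane-sector subunit Atp6v0d2, which has a restricted tissue range, stood at 69.5, 80.7 and 74.7 CPM in injured control nerve and 3.23, 6.72 and 4.45 in injured dKO nerve, from 0.351 to 1.12 in the intact libraries. It rose 103-fold in control and 8.07-fold in dKO nerve (-3.68 ± 0.51 SE, adjusted p = 0.00156). Atp6v1b2 of the catalytic sector differed by -1.03, and the ring subunits Atp6v0b and Atp6v0c by -0.89 and -0.81. Those 4 passed with the set term and Atp6v0d1 did not. The count was 8 without replicate 4 of injured control nerve.

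Autophagy genes and the nutrient-sensing pathway upstream of TFEB had few members past the test. Of 39 autophagy genes, 1 was lower in dKO, the cargo receptor Sqstm1 (-0.75, adjusted p = 0.0207), and the median was -0.07, which turned positive with upper-quartile scaling. Sqstm1 did not pass without replicates 2 or 4 of dKO intact nerve, replicate 3 of control intact nerve, or replicates 2 or 3 of injured dKO nerve (adjusted p up to 0.0882), and with the set term its adjusted p was 0.20. Among 25 genes for folliculin, the Rag GTPases and mTORC1, only Mtor passed, higher in dKO (1.32, adjusted p = 0.0185). Its intact levels were uneven, from 232 to 461 CPM in control nerve, and it did not pass in 4 of the fits without 1 library (replicate 2 of injured control nerve, replicate 3 of injured dKO nerve, and replicates 3 and 4 of dKO intact nerve; adjusted p 0.0559 to 0.0580), nor with the set term (adjusted p = 0.190).

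The nerve also holds macrophages, which express many of the genes above. Of 26 macrophage markers, 0 passed in edgeR and 0 in DESeq2. At an unadjusted p below 0.05 in edgeR, 5 were lower in dKO and 0 higher (2400 and 1143 of all 22384 tested genes). Their median injury change was 2.28 in control and 2.31 in dKO nerve. Their summed level was 3071 to 4252 CPM in the 3 injured control libraries and 3190 to 4162 in the injured dKO libraries, which overlap. Single members ran from -1.24 for Ms4a7 and -0.85 for Cd68, a lysosomal glycoprotein, to 0.78 for H2-Eb1. Adgre1, which encodes F4/80, differed by 0.11 and Lyz2 by -0.01. The median difference of the list was -0.06, with 16 of 26 below 0. It was -0.30 with the set term, 0.07 at the highest among scalings, and -0.23 to 0.08 with 1 library left out, so its sign is not settled.

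**Figure D2:**
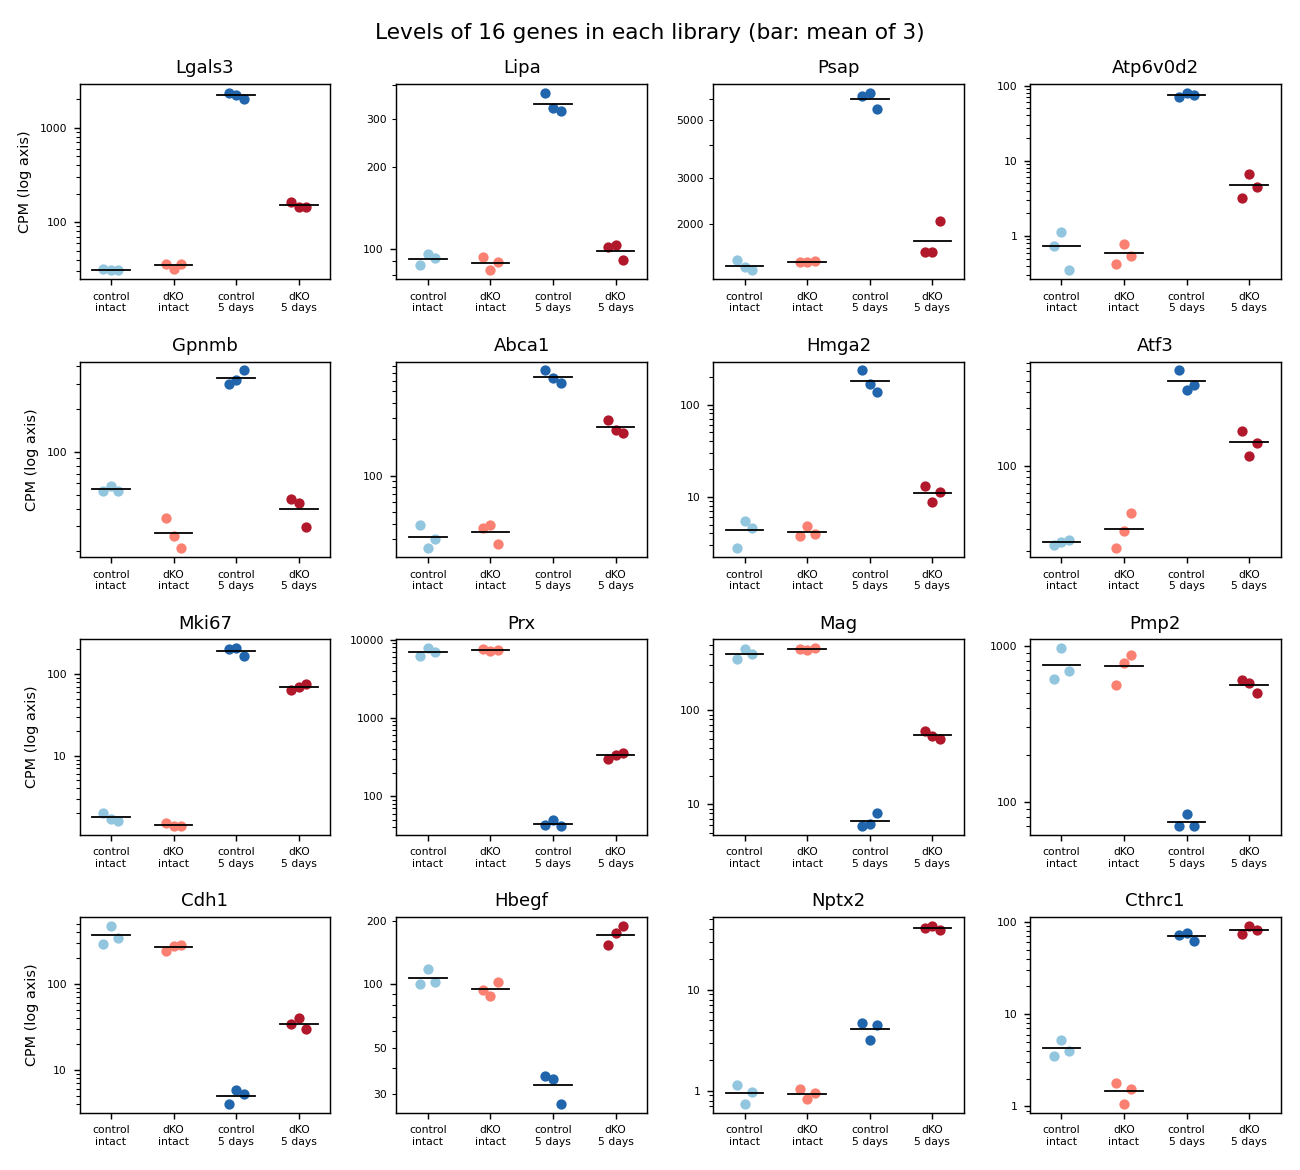
Level of 16 genes in each library in CPM (y axis, log scale) for the 4 groups (x axis); points are libraries and bars are means of 3. The intact groups lie close together for most genes, while the injured groups separate downward in dKO nerve for the phagocyte, lysosomal, repair and division genes and upward for the myelin genes, Hbegf and Nptx2.

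Cell division genes rose strongly after injury, and less so in dKO nerve. All 35 mitosis genes had a difference below 0 (median -1.15), and 12 passed the test, all lower. Mki67, the standard proliferation marker, was at 1.39 to 2.01 CPM in the intact libraries, at 204, 206 and 165 in injured control nerve and at 64.4, 69.9 and 75.3 in injured dKO nerve. It rose 109-fold in control and 48.8-fold in dKO nerve (-1.15 ± 0.19 SE, adjusted p = 0.00408). Their summed level was 2007 to 2665 CPM in injured control and 851 to 1013 in injured dKO nerve, from 91.7 to 112 in the intact libraries.

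Foxm1, a transcription factor of mitotic genes, differed by -1.54, the spindle protein gene Nusap1 by -1.62, and the kinesin gene Kif20a by -1.13. Racgap1, needed for the final split of dividing cells, stood at 117, 135 and 112 CPM in injured control nerve against 37.2, 40 and 42.3 in injured dKO nerve (-1.67, adjusted p = 7.14e-05). All 32 DNA replication genes were also below 0 (median -0.98), with 12 passing, all lower. They include the origin factor Cdc45 (-1.38), the helicase subunit Mcm7 (-0.95), the polymerase Pole (-1.33) and the S-phase activator E2f1 (-1.56). With the set term the passing counts were 4 for mitosis and 2 for replication, with medians of -0.91 and -0.69, and Kif20a, Pole and E2f1 were not among them. For replication the count was 7 without replicate 3 of injured dKO nerve. In limma-voom the counts were 4 for mitosis and 10 for replication, and Mki67 did not pass. In DESeq2 they were 17 and 19, against 738 lower over all 22384 tested genes. Of 12 D cyclins and CDK inhibitors, 1 passed, the inhibitor Cdkn2d (-1.16), which did not pass with the set term (adjusted p = 0.112).

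Repair Schwann cell genes were lower in 11 of 34 cases and higher in 1, with a median of -0.69. Hmga2, a chromatin protein of growing embryonic tissue, stood at 2.78 to 5.5 CPM in the intact libraries, at 235, 166 and 136 in injured control nerve and at 13.1, 8.83 and 11.3 in injured dKO nerve. It rose 41.6-fold in control and 2.65-fold in dKO nerve (-3.97 ± 0.36 SE, adjusted p = 7.99e-05), and was the member of this list that passed with the set term (-3.57). Sox2, which holds Schwann cells in an immature state, differed by -1.31, and Foxd3, a factor of the neural crest, by -1.62. The low-affinity neurotrophin receptor Ngfr, a marker of repair cells, reached 1905, 1687 and 1315 CPM in injured control nerve and 582, 502 and 458 in injured dKO nerve (-1.15).

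The AP-1 family holds the best known driver of repair cells. Jun rose from 53.9 to 75.9 CPM in the intact libraries to 548, 491 and 463 in injured control nerve and to 295, 297 and 291 in injured dKO nerve. The difference was -0.82 ± 0.18 (SE, adjusted p = 0.0211). Atf3, an injury factor that pairs with c-Jun, stood at 607, 423 and 456 CPM in injured control and 194, 120 and 154 in injured dKO nerve (-2.02). Together with Fosl1 (-1.32) these were 3 of 14 AP-1 and ATF genes, and 0 of the 14 passed with the set term (adjusted p = 0.21 for Jun and 0.062 for Atf3).

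Several repair genes depended on single libraries or on the set term. The 11 lower repair genes became 1 with the set term. They became 6 without replicate 3 of dKO intact or of injured dKO nerve, and 7 without replicate 3 of control intact nerve or replicate 2 or 4 of dKO intact nerve. Jun did not pass without replicate 2 or 3 of dKO intact nerve or replicate 3 of injured dKO nerve (adjusted p 0.0572 to 0.0658), and Ngfr not without replicate 3 or 4 of injured dKO nerve (adjusted p 0.0502 to 0.0574). Fosl1 lost its call in 7 of the fits without 1 library (adjusted p up to 0.0893), and 57.2% of its exon bases overlap Ccdc85b. Of 17 immature and non-myelinating Schwann cell markers, 4 were lower in dKO and 1 higher, with a median of -0.16. With the set term 0 were lower and 1 higher, and the member Cdh19 (-1.15) did not pass.

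Myelin genes fell after injury, and many of them fell less in dKO nerve. Of 26, 14 were higher in dKO and 0 lower, with a median of 1.10, and 10 passed with the set term. Periaxin (Prx), which links the myelinating Schwann cell to its basal lamina, stood at 6209 to 7746 CPM in the intact libraries, at 42.3, 50.2 and 41.8 in injured control nerve and at 302, 335 and 357 in injured dKO nerve. It fell 155-fold in control and 22.2-fold in dKO nerve (2.81 ± 0.17 SE, adjusted p = 1.02e-06).

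Mag, an adhesion protein facing the axon, fell 59.6-fold in control and 8.22-fold in dKO nerve (2.86). The tight junction gene Cldn19 differed by 2.23, and the dystrophin-related gene Drp2, a periaxin partner, by 2.31. Pmp2, the fatty acid carrier of myelin, stayed near its intact level in dKO nerve: 69.9, 83.1 and 70.2 CPM in injured control and 605, 572 and 495 in injured dKO nerve, against 558 to 960 in intact nerve. Its difference was 2.94 ± 0.26 (SE, adjusted p = 2.32e-05), although 86.9% of its exon bases are shared with the model Gm37389 on the same strand. Fa2h, which makes the hydroxylated fatty acids of myelin lipid, differed by 2.71 and did not pass with the set term (adjusted p = 0.13).

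Other lists tied to myelin had few members past the test. Of 19 genes of myelin galactolipid and sphingolipid synthesis, only Fa2h passed. The median of that list was -0.24, with 13 of 19 differences below 0. At an unadjusted p below 0.05 in edgeR, 6 of the 19 were lower and 2 higher, and in DESeq2 0 and 2 passed. The same cut gave 2400 lower and 1143 higher over all 22384 tested genes, and DESeq2 passed 738 and 358. Of 16 myelination transcription factors, 1 passed, Egr2 (1.42, adjusted p = 0.0158), which drives the myelin program. Egr2 did not pass without replicate 3 of injured dKO nerve (adjusted p = 0.0536) or replicate 4 of dKO intact nerve (adjusted p = 0.0502). Nor did it pass with the set term (adjusted p = 0.0564). Cholesterol synthesis (24 genes) and fatty acid synthesis (19 genes) had 0 passing members in edgeR, with medians of 0.25 and 0.39 and with 21 of 24 and 16 of 19 differences above 0. At an unadjusted p below 0.05 in edgeR, cholesterol synthesis had 1 lower and 4 higher members, and fatty acid synthesis 1 lower and 2 higher. In DESeq2 the 1 passing cholesterol gene was lower in dKO and the 1 passing fatty acid gene higher. Their median injury changes in control and dKO nerve were -2.87 and -2.42 for cholesterol and -1.34 and -0.79 for fatty acids.

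Genes of the node and of contact between axon and Schwann cell were higher in 5 of 17 cases and lower in 1. Cdh1, E-cadherin of the junctions within a Schwann cell, stood at 4.01, 5.82 and 5.18 CPM in injured control and 33.9, 40 and 29.4 in injured dKO nerve, from 238 to 469 in intact nerve (3.25 ± 0.26 SE, adjusted p = 1.38e-05). The adhesion genes Cadm3 and Cadm4 differed by 1.89 and 1.12, gliomedin (Gldn), which gathers sodium channels at nodes, by 1.44, and the gap junction gene Gjb1 by 1.21. Nrcam, a cell adhesion gene of the node, was the lower one (-1.15). All 5 higher genes passed with the set term and Nrcam did not.

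Some genes changed in opposite directions in the 2 genotypes. Hbegf, an EGF family ligand, was at 87.4 to 118 CPM in the intact libraries, at 36.7, 35.6 and 27 in injured control nerve and at 153, 175 and 189 in injured dKO nerve. It fell 3.23-fold in control and rose 1.82-fold in dKO nerve (2.56 ± 0.18 SE, adjusted p = 4.25e-06), 1 of 11 neuregulin, EGF ligand and ErbB genes to pass. Foxq1, a forkhead factor, went the other way: 2.49 to 4.33 CPM in the intact libraries, 34.7, 36.4 and 35.8 in injured control and 0.846, 0.861 and 2.14 in injured dKO nerve (-5.09 ± 0.43 SE). Of its exon bases 66.1% overlap A530084C06Rik on the opposite strand, and whether the counting used strand is not given.

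Eef1a2, a translation elongation factor of nerve and muscle, rose 3.82-fold in control and fell 5.91-fold in dKO nerve (-4.50). Aspa, which splits N-acetylaspartate, rose 1.84-fold and fell 2.51-fold (-2.20), and the NAD kinase gene Nadkd1 differed by -1.45. Nptx2, a secreted pentraxin, rose in both: 3.21 to 4.66 CPM in injured control and 38.9 to 42.8 in injured dKO nerve, from 0.744 to 1.13 in intact nerve (3.35 ± 0.30 SE).

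Of the 14 hedgehog genes, 2 were higher in dKO. Dhh, the Schwann cell ligand whose regulatory DNA drives the Cre, stood at 70.5, 57.2 and 46.3 CPM in injured control and 204, 229 and 207 in injured dKO nerve (1.55 ± 0.21 SE, adjusted p = 0.000874), and 25.2% of its exon bases are shared with other genes. The difference kept its call with the set term (1.87). Only the dKO mice carried Dhh-Cre, and whether reads from it enter the Dhh counts was not tested. Shh, a ligand that repair Schwann cells turn on, rose in both genotypes, to 292, 348 and 294 CPM in control and 239, 228 and 270 in dKO nerve. Its difference of 1.13 (adjusted p = 0.0463) came with lower intact levels in dKO nerve (2.81 to 4.38 against 7.06 to 12.5 CPM), and it did not pass in 10 of the fits without 1 library (adjusted p up to 0.144), nor with the set term (adjusted p = 0.215). The receptor and target gene Ptch1 differed by 1.10 and did not pass (adjusted p = 0.0711).

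Cthrc1, a secreted protein of injured tissue listed with the Wnt genes, was at 3.51, 5.29 and 3.93 CPM in control intact and 1.8, 1.07 and 1.56 in dKO intact nerve. It reached 62.3 to 74.9 CPM in injured control and 74.2 to 89.9 in injured dKO nerve, which overlap. Its difference was 1.75 (adjusted p = 0.00163), and Cthrc1 was the 1 gene to pass the genotype test in intact nerve. Among the 17 Wnt genes the inhibitor Dkk3 was also higher (0.78) and Frzb lower (-1.27), and neither passed with the set term (adjusted p = 0.107 and 0.140). Other genes high in dKO nerve were Sostdc1, an antagonist of BMP and Wnt (2.67), the Eph receptor Ephb6 (2.36), and Egfl8 (2.72), of whose exon bases 40.7% overlap other genes.

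Collagens were higher in 2 of 21 cases (Col5a3 0.81 and Col16a1 0.88), with a median of 0.60 and 17 of 21 above 0. That count depends on the fit: 13 were higher at an unadjusted p below 0.05, 8 passed in DESeq2 and 5 with upper-quartile factors. Of all 22384 tested genes, 1143 were higher at that cut, 358 in DESeq2 and 224 with upper-quartile factors. Basal lamina genes were higher in 2 of 21 cases (Hspg2, perlecan, 0.92, and Drp2) and lower in 1 (Itga7, -0.90), with 7 higher in DESeq2 and 4 with upper-quartile factors. With the set term Col5a3 (adjusted p = 0.0678) and Itga7 (adjusted p = 0.368) did not pass. Among 23 matrix proteases and inhibitors, Adamts5 (-1.39), Mmp17 (-0.97) and Plaur (-2.07) were lower, and Serpine2, a protease inhibitor made by glia, higher (1.21). With the set term the 3 lower genes did not pass (adjusted p = 0.0767, 0.129 and 0.320), and Serpine2 did. Fibroblast markers moved beside them, but that list and the collagens share at least 1 gene, so the 2 are not separate results. The fibroblast markers summed to 9957 to 15582 CPM in injured control and 17921 to 19844 in injured dKO nerve. Of the 17, 12 had a difference above 0, and their part in the collagen result was not tested. None of the 17 passed in edgeR, 6 were higher at an unadjusted p below 0.05, and 3 in DESeq2.

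The last lists cover metabolism and other cells of the nerve. Of 23 integrated stress response and amino acid genes, 3 were higher in dKO (Pycr1 1.09, Asns 1.07 and Aldh18a1 0.53), each at an adjusted p above 0.02, and 0 passed with the set term. Gapdh, which has many pseudogene copies, was the 1 of 20 glycolysis genes to pass (-0.94), but not with the set term (adjusted p = 0.435). Of 28 oxidative phosphorylation genes, 0 passed in edgeR and 0 in DESeq2. At an unadjusted p below 0.05 there were 0, against 2400 lower and 1143 higher over all 22384 tested genes. Tgfb1 was lower (-0.98, adjusted p = 0.0174) as 1 of 27 chemokines and cytokines. It did not pass without replicate 2 or 3 of dKO intact nerve or replicate 3 of injured dKO nerve (adjusted p 0.0520 to 0.0545), nor with the set term (adjusted p = 0.213) or without the 2 injured control libraries of the first set (adjusted p = 0.223).

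Markers of other cell types had 0 passing members in edgeR: lymphocytes (16 tested), mast cells (10), neutrophils (9), endothelium (16), mural cells (12), perineurium (10), fat (8), muscle (14) and red cells (5 of 8). At an unadjusted p below 0.05 mast cells had 4 lower, muscle 7 higher, and in DESeq2 1 and 3 of these passed. Over all 22384 tested genes, 2400 were lower and 1143 higher at that cut, and 738 and 358 passed in DESeq2. The mast cell median was -0.92, and -1.39 with the set term. Muscle markers were above 0 in 14 of 14 (median 2.22), with a summed level of 16.1 to 24.2 CPM in injured control and 29.3 to 146 in injured dKO nerve. Red cell markers summed to 272 to 13525 CPM in injured control nerve, and their median of -2.71 became -0.16 with the set term and 0.46 without replicate 1 of injured control nerve, the library with high Xist. Endothelial markers summed to 921 to 1597 CPM in control intact and 1523 to 1765 in dKO intact nerve, and to 991 to 1194 and 1369 to 1901 after injury. Lymphocyte markers summed to 3.44 to 5.08 and 4.17 to 4.58 CPM in intact nerve, and to 78.5 to 294 and 27.2 to 41.3 after injury. Their median injury change was nevertheless 2.08 in control and 2.67 in dKO nerve. The median difference was -0.09 (0.25 with the set term), with 10 of 16 below 0, and the 1 member at an unadjusted p below 0.05 in edgeR was higher.

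**Figure D3:**
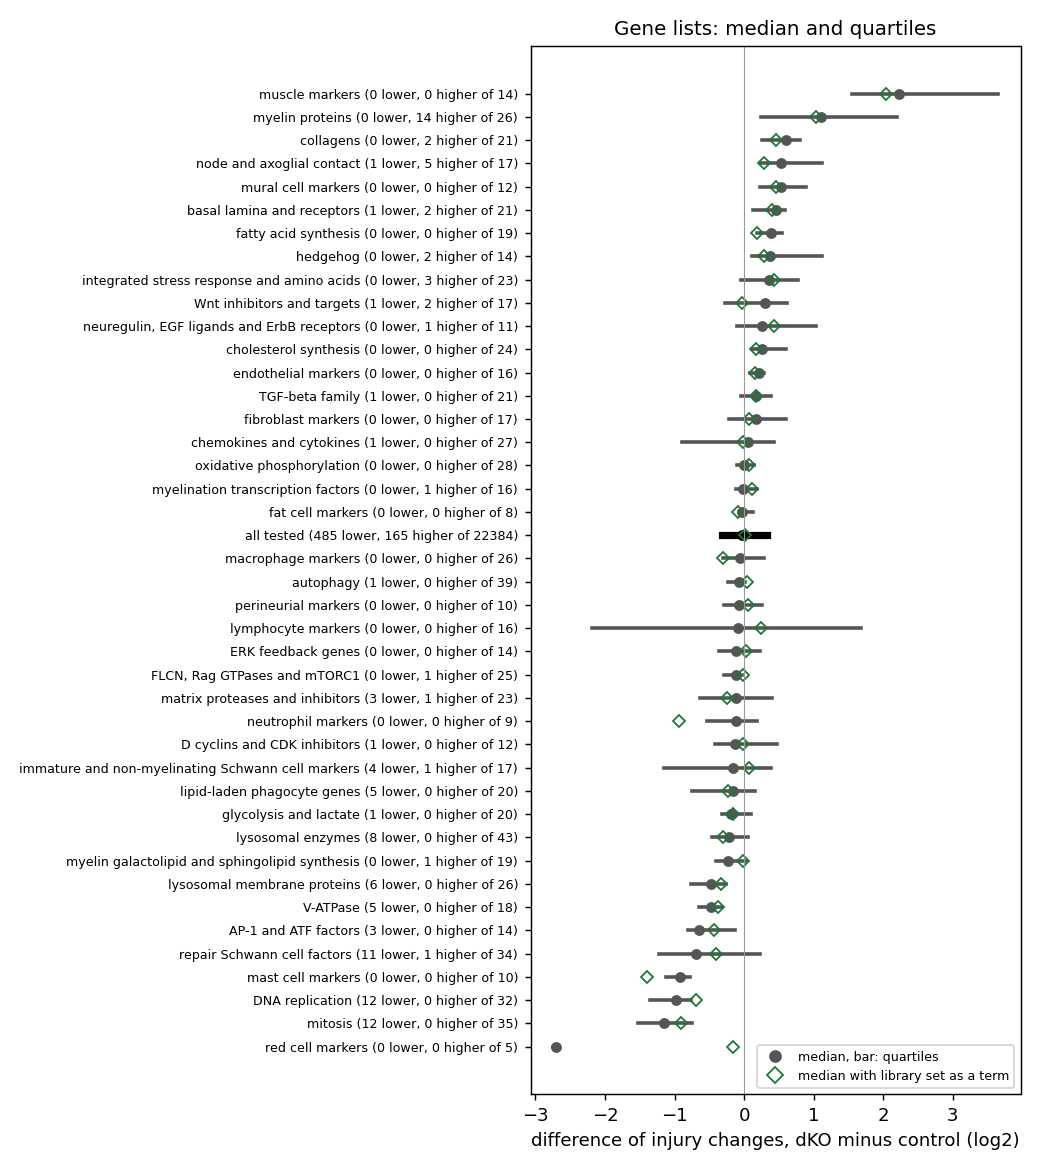
Median difference of injury changes (dKO minus control, log2, x axis) for each gene list (y axis, with passing members lower and higher of those tested); bars are quartiles and diamonds the median with the library set as a term. The cell division lists (medians -1.15 and -0.98), the repair genes (-0.69) and the V-ATPase (-0.48) lie left of all tested genes (-0.03), and the myelin genes (1.10) lie right.

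**Figure D4:**
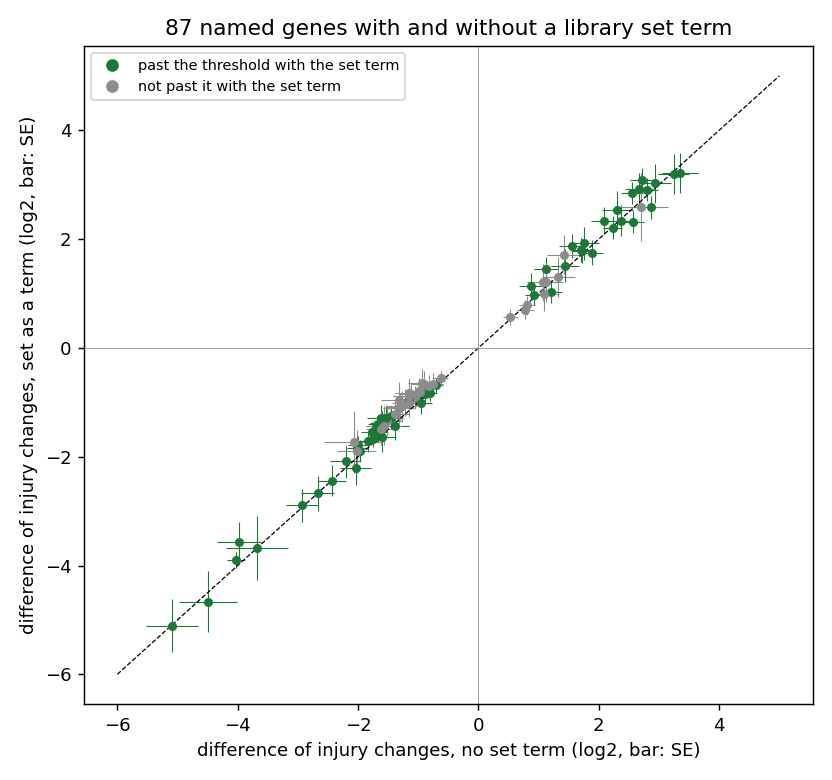
Difference of injury changes (log2, bars are SE) of the 87 named genes that passed the test, without (x axis) and with (y axis) the library set as a term; green genes also passed with the term (55 of 87). Points lie along the line of equality, and genes that lost the call have differences nearer to 0 or wider bars.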

How the data were processed

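Bulk RNA of 12 mouse sciatic nerve libraries was compared in 4 groups of 3. The authors deposited a table of raw read counts per gene model and a table of normalized values (a signal, counts divided by 1 size factor per library). The submitters' processing notes name DESeq2, R 4.2.1 and mm10, and per the labels libraries came from polyA RNA with an Ion total RNA kit; the sources used here do not name aligner, counter, strand or annotation. Normalized values over counts varied by at most 0.0685% inside a library.

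The test was that of edgeR 4.0.16 (R 4.3.3) on the counts: filterByExpr (minimum count 10), TMM factors, robust quasi-likelihood F-tests of 1 group-mean model, 8 residual degrees of freedom, and Benjamini-Hochberg adjustment over 22384 models with a threshold of 0.05. CPM values use TMM library sizes. Every adjusted p is from edgeR. Replicate pairs differed beyond counting noise, so none is a duplicate. For a single comparison of 3 libraries against 3, an exact permutation test cannot go below p = 0.1. That floor is not the one of the contrast over 4 groups, for which no permutation test was run.

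The gene lists (43, 812 genes, 795 tested) and the members shown were chosen with earlier results of these data known. Named by rule are Dhh, Tfe3 and Tfeb, then the 15 genes per direction with the smallest p (mean log2 CPM at least 3, predicted, date-like and sex-linked models left out), up to 4 passing members per list (or the 1 with the smallest p), and up to 6 genes with opposite injury changes. Of the genes so named, 1 is not reported here. Positions came from GENCODE M21 and promoters from RefSeq (GRCm38.p6). Alternatives were DESeq2 1.42.0, limma 3.58.1 (voom, and trend on log2 of the normalized value plus 1), other scaling factors, filters and thresholds, sex and the library set as terms, a block for replicate number, and fits without 1 library. The test was checked on simulated data.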

Additional observations from a re-analysis of the deposited data

Results flagged for a closer look

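Injury changes differed between the genotypes in 485 genes that were lower and 165 that were higher in dKO, and named genes among them are listed here because the difference itself passed the test. Each number is the injury change in dKO nerve minus that in control nerve on the log2 scale, from edgeR.

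Lower in dKO among phagocyte, lysosomal and lipid genes were Lgals3 -4.02, Gpnmb -2.04, Abca1 -1.52, Fabp5 -1.06, Lipa -1.75, Psap -1.84, Gla -1.61, Tpp1 -0.70, Nceh1 -1.66, Gpr137b -1.61, Abcb9 -1.46, Scarb2 -1.22, Mcoln1 -0.63, Atp6v0d2 -3.68, Atp6v1b2 -1.03, Atp6v0b -0.89, Atp6v0c -0.81 and Sqstm1 -0.75. Lower among division genes were Racgap1 -1.67, Foxm1 -1.54, Nusap1 -1.62, Kif20a -1.13, Mki67 -1.15, Cdc45 -1.38, Mcm7 -0.95, Pole -1.33, E2f1 -1.56 and Cdkn2d -1.16. Lower among repair, immature Schwann cell and transcription factor genes were Hmga2 -3.97, Foxd3 -1.62, Sox2 -1.31, Atf3 -2.02, Jun -0.82, Fosl1 -1.32, Ngfr -1.15, Cdh19 -1.15 and Foxq1 -5.09. The remaining lower genes were Dpy19l1 -2.00, Sec11c -1.97, Tmod1 -2.01, Fgfbp3 -2.93, Sytl2 -2.44, Lhfpl2 -1.77, Gadd45b -2.67, Uap1l1 -1.69, Eef1a2 -4.50, Aspa -2.20, Nadkd1 -1.45, Tgfb1 -0.98, Itga7 -0.90, Adamts5 -1.39, Mmp17 -0.97, Plaur -2.07, Frzb -1.27 and Gapdh -0.94.

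Higher in dKO among myelin and contact genes were Prx 2.81, Mag 2.86, Pmp2 2.94, Cldn19 2.23, Drp2 2.31, Fa2h 2.71, Egr2 1.42, Cdh1 3.25, Cadm3 1.89, Cadm4 1.12 and Gldn 1.44. Higher among signalling and secreted genes were Hbegf 2.56, Dhh 1.55, Shh 1.13, Nptx2 3.35, Cthrc1 1.75, Dkk3 0.78, Sostdc1 2.67, Ephb6 2.36, Egfl8 2.72, Fgl2 1.72 and Serpine2 1.21. The remaining higher genes were Kif19a 2.57, Ccdc146 1.70, Hspg2 0.92, Col5a3 0.81, Col16a1 0.88, Mtor 1.32, Pycr1 1.09, Aldh18a1 0.53 and Asns 1.07. Fgl2 lies inside Ccdc146 on the opposite strand, and 0% of their exon bases are shared in GENCODE M21. Both nevertheless had nearly the same counts in every library. The annotation used for counting is not given, so their reads cannot be told apart here. Of Tmod1 32.6% and of Kif20a 29.3% of the exon bases are shared with another gene.

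Leaving out 1 library ended the call for 16 of the 87 genes and reversed none. Asns, Cdh19, Gapdh and Shh lost it in 10 of the 12 such fits, Plaur in 9, Aldh18a1, Itga7 and Pycr1 in 8, Fosl1 in 7, Col16a1 and Sqstm1 in 5, Mtor in 4, Jun and Tgfb1 in 3, and Egr2 and Ngfr in 2. The highest adjusted p in those fits was 0.144 for Shh, 0.125 for Plaur, 0.122 for Asns and Aldh18a1, 0.121 for Gapdh, 0.105 for Itga7, 0.0991 for Cdh19, 0.0881 for Col16a1 and 0.0778 for Pycr1. Each of these genes had an adjusted p above 0.01 in the fit of all libraries.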

How the results depend on the processing

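The direction held under each of the 26 alternatives for all 87 named genes that passed the test, and 31 of them passed in every one. At the threshold of 0.01 and the minimum difference of 1 the direction could not change, because both use the main fit. All alternatives draw on the libraries in which the 87 were picked, so they are no separate evidence. The number of genes did not hold. Lower and higher in dKO were 177 and 81 at a threshold of 0.01, 20 and 22 when tested against a log2 difference of 1, 738 and 358 with DESeq2, 97 and 75 with the library set as a term, and 94 and 89 without the 2 injured control libraries of the first set, which leaves 1 library assumed to vary like the others. Upper-quartile factors gave 296 lower and 224 higher. Counts moved by less than 1.5 times with DESeq2 size factors, without or with a stricter low-count filter, with limma-voom, with the authors' normalized values and with sex as a covariate. The cause of these moves was not tested, except that the stricter threshold and the minimum difference pass fewer genes by construction.

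Leaving out 1 library gave 251 to 908 lower and 101 to 368 higher genes. The lower count moved by over 1.5 times without replicate 4 of injured control nerve (908), replicate 2 of injured control nerve (316), replicate 3 of control intact nerve (292), replicates 2 and 4 of dKO intact nerve (260 and 314) and replicate 3 of injured dKO nerve (251). The higher count did so without replicate 4 of injured control nerve (368), replicate 3 of dKO intact nerve (108) and replicate 3 of injured dKO nerve (101).

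Whether the replicate numbers pair the samples is not given, and number 1 of control differs in sex between intact and injured nerve. Intact and injured libraries of the same number had correlations of their deviations from -0.09 to 0.09. For different numbers these ran from -0.11 to 0.09. With 3 libraries a group, such correlations cannot show whether a number marks an animal. A replicate block with the number within genotype gave 201 lower and 89 higher genes, and a replicate block with the number shared across genotypes 294 and 116. Depth limits the low genes: Foxq1 had about 1 CPM in injured dKO nerve and Atp6v0d2 under 1.2 CPM in intact nerve, so their fold changes are less precise than those of Lgals3 or Prx.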
